A study of Mus musculus with 8 samples.

Results

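Collagen genes, one for each collagen α chain, were followed in sorted natural killer (NK) cells of BALB/c mice bearing CT26_β2m-/- tumours under the skin. The rule took every gene whose symbol is Col, a number, a and a number, which gave 44 of the 45706 genes in the deposited tables. CT26 is a mouse colorectal carcinoma line, and the β2m-/- cells lack β2-microglobulin and so do not present MHC class I. The series compared NK cells titled tuNK (intratumoral, 4 libraries) with NK cells titled spNK (splenic, 4 libraries) by bulk RNA sequencing, to describe how their transcriptomes differ. No tumour-free mouse is named as a control. The tissue tag and the source name give spleen for the 4 samples titled tuNK and tumour for the 4 titled spNK. Groups and directions here follow the titles, and all directions would turn if the tags were right. The labels do not name the sort markers and do not say that replicates were separate mice, so each p-value reflects no more than the spread of these libraries, which may be technical. They do state that the tissues were digested with collagenase, dispase, hyaluronidase and DNase before the sort.

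Collagens are extracellular matrix proteins built of 3 α chains wound into a triple helix, and each chain has its own gene. Fibrillar collagens form the fibres of connective tissue, type IV forms the sheet of basement membranes, type VI forms beaded filaments, and the FACIT collagens sit on fibril surfaces. The chains are hydroxylated, glycosylated and folded in the endoplasmic reticulum with the help of a collagen chaperone, secreted as procollagen, trimmed by proteases and crosslinked outside the cell. Fibroblasts, pericytes and many tumour cells are the usual makers of the fibrillar and type VI chains, whereas leukocytes are known for collagen receptors rather than for collagen.

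Depth was similar across the 8 libraries, with totals of 38745733 to 53886933 deposited estimated counts. Levels are given as counts per 1000000 scaled by TMM (CPM), a method that equalises most genes between libraries, or as transcripts per 1000000 (TPM), which also divides by length and alone allows levels of different genes to be compared. NK cell identity was checked with 10 marker genes, and all 10 were above 0 in both groups and lower in tuNK (6 of 10 with the leukocyte scaling described next), with sums of 11123 to 16098 CPM in spNK and 3399 to 4855 CPM in tuNK. Gzma, a granzyme, was the largest part of both sums, with means of 7293 ± 1165 and 2476 ± 473 CPM, followed by Ncr1 in spNK (1468 ± 223 CPM) and Prf1 in tuNK (554 ± 121 CPM). A list of 31 genes expressed across leukocytes was lower in tuNK throughout, with a median log2 fold change of -1.65. Scaling to those 31 genes moved the median of all 14006 tested genes from 0.02 to 1.67 on the log2 scale. For collagen chains and genes that make or sense collagen, each direction below is also given with that scaling where it differs. For lists of cell type markers only the numbers called are given with it, and levels of single markers are by TMM alone. In bulk RNA, fewer cells of a type and less RNA per cell cannot be told apart.

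A chain was called detected when at least 2 libraries held 10 or more counts. By that rule 27 of the 44 collagen genes were detected, a share to be read against 34.2% of all genes (15640 of 45706). In tuNK alone the rule was met by 23 chains and in spNK alone by 14. Both groups shared 10 chains: Col1a2, Col3a1, Col5a1, Col4a1, Col4a2, Col8a2, Col16a1, Col20a1, Col15a1 and Col18a1. A further 13 met the rule in tuNK only, and 4 met it in spNK only (Col11a2, Col9a3, Col19a1 and Col23a1). Meeting the rule in one group only is a statement about counts and not a test of a difference.

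By class, 8 of 11 fibrillar chains were detected, 3 of 6 basement membrane chains, 3 of 6 beaded filament chains and 2 of 3 short chain network chains. The single anchoring fibril chain was detected, as were 6 of 9 FACIT chains, 2 of 4 transmembrane chains and both multiplexin chains. Neither of the remaining chains, Col26a1 and Col28a1, was detected. In tuNK the detected number per class was 7 fibrillar, 3 basement membrane, 3 beaded filament, 2 short chain, 1 anchoring fibril, 4 FACIT, 1 transmembrane and 2 multiplexin chains. In spNK it was 4 fibrillar, 2 basement membrane, 0 beaded filament, 1 short chain, 0 anchoring fibril, 4 FACIT, 1 transmembrane and 2 multiplexin chains.

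The threshold falls between chains of similar level. Just inside it were Col24a1, with 8, 10, 13 and 1 counts in tuNK 1 to 4, and Col9a3, with 10, 24 and 20 counts in its 3 highest libraries. Just outside were Col4a4 with 12 and 6 counts in spNK 1 and 2, Col9a2 with 4 and 10 counts in spNK 2 and 3, and Col10a1 with 22 counts in tuNK 4 and 0 elsewhere.

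**Figure D1:**
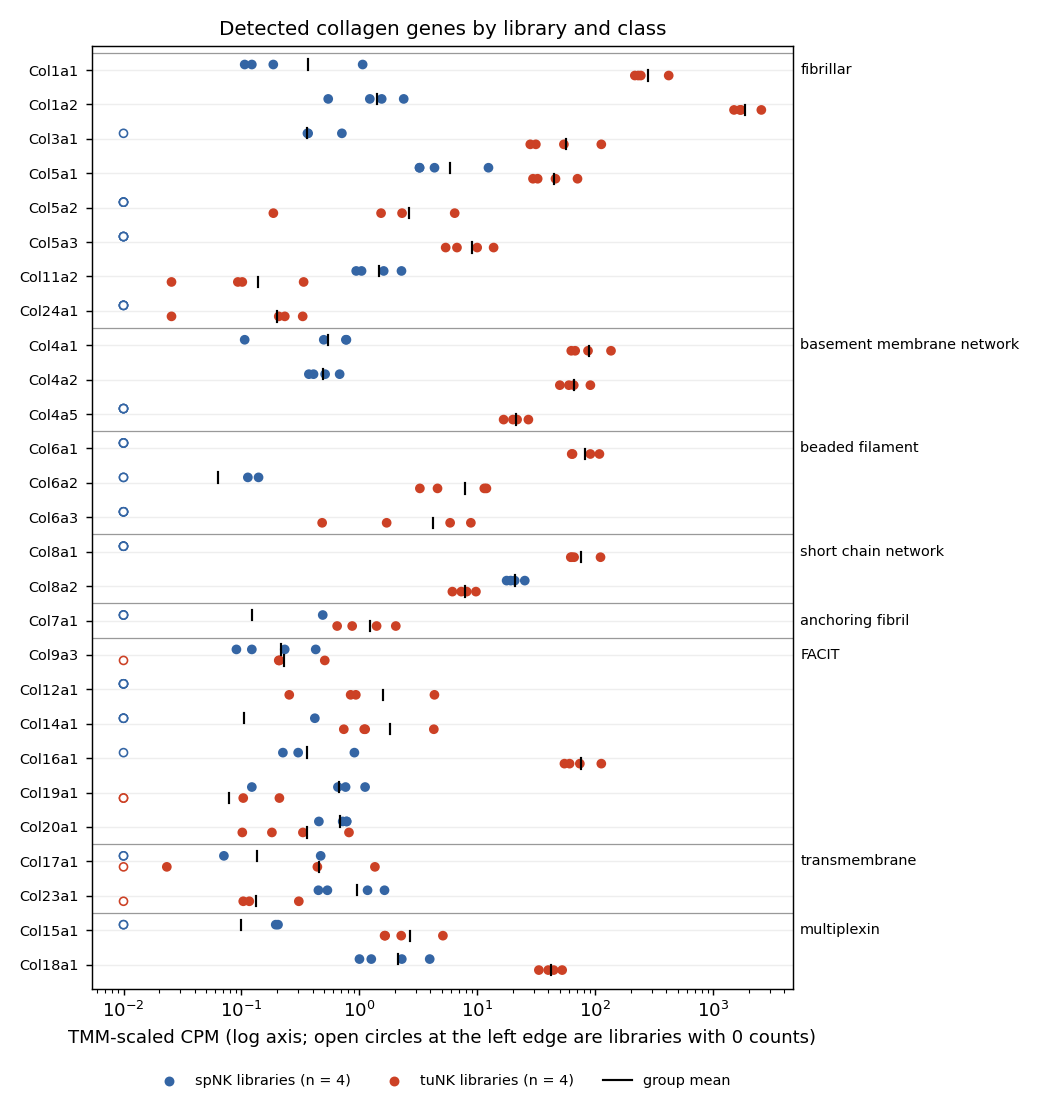
TMM-scaled CPM on a log axis for the 27 detected collagen genes, grouped by class, with 1 point per library (4 spNK, 4 tuNK), an open circle for a library with 0 counts and a bar at the group mean. The tuNK points of Col1a2 stand highest, and Col8a2 is the chain with the highest spNK points.

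The edgeR quasi-likelihood test compared the groups on the counts of all 14006 genes that passed a filter on low counts, with Benjamini-Hochberg adjustment and a threshold of 0.05. Of the 44 chains 21 passed the filter. Among them 17 were higher in tuNK, 3 were lower and 1 was not called. Over all genes tested, 35.6% were called higher and 34.0% lower, so a call in itself is common in these data. Groups did not overlap, with tuNK higher, for 17 of the 21 chains and for 34.4% of all genes tested. They did not overlap with tuNK lower for 3 chains and for 32.6% of all genes tested. A chain at 0 or low in one group enters the test only through its counts in the other. Col1a1, with 8, 6, 6 and 47 counts in spNK 1 to 4, passed the filter through tuNK. The filter thus takes in chains that are high in one group alone. The numbers of chains called or without overlap, and the medians below, describe the tested chains and not all 44.

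Scaled to the leukocyte genes, the same 17 chains were higher, against 78.1% of all genes tested, and 0 were lower, against 6.7%, and also 0 by edgeR at an unadjusted p under 0.05. No other tool was run with that scaling. The 3 chains lower by TMM were then not called, and 4 of the 21 were not called in all. The median log2 fold change of the 21 tested chains was 7.08, or 6.98 with the chains at 0 in spNK placed at their lower bound, beside 0.02 over all genes tested. Scaled to leukocyte genes it was 8.75, beside 1.67.

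The fibrillar class held the most abundant chains of tuNK per length. Col1a2, the α2 chain of type I collagen of skin, bone and tendon, lies at chr6:4504814-4541544. It stood at 2.37, 1.54, 1.22 and 0.543 CPM in spNK 1 to 4 and at 2549, 1715, 1679.5 and 1495 CPM in tuNK 1 to 4. Every tuNK library was above every spNK library, tuNK 1 was the highest, and spNK 4 was the lowest. The means were 1.42 ± 0.759 and 1859.8 ± 469 CPM (SD, n = 4 each), a 1309-fold difference. The log2 fold change was 10.35 ± 0.45 (edgeR, adjusted p = 1.21e-07), where the SE, here and below, is derived from the F statistic of the test. The promoter window of Col1a2 is shown because this gene carried most of the collagen RNA of tuNK. It comes from RefSeq on GRCm38.p6, chr6:4505368-4505667 on the plus strand, 250 bases before to 50 after the RefSeq start. The window lies inside the gene body given above, which is from GENCODE M21 and starts upstream of it. Capitals mark CCAAT boxes (CCAAT) and GC boxes (GGGCGG) read on either strand, 2 of each.
Col1a2: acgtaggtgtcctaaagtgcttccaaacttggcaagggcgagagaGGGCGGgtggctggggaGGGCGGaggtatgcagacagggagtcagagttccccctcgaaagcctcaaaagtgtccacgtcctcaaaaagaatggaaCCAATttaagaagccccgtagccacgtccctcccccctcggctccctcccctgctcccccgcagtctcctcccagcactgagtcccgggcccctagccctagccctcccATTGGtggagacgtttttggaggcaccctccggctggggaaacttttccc

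Col1a1, the α1 partner chain (chr11:94936224-94953042), stood at 0.186, 0.106, 0.122 and 1.06 CPM in spNK 1 to 4 and at 418, 243, 216 and 230.5 CPM in tuNK 1 to 4. The groups did not overlap, and tuNK 1 and spNK 4 each stood above the rest of their group. The log2 fold change was 9.60 ± 0.64 (edgeR, adjusted p = 2.59e-06), and 10.96 without spNK 4, where the spNK mean was 0.138 in place of 0.370 CPM. Col3a1, the chain of the type III collagen of soft tissue and vessel walls, stood at 0, 0.710, 0.367 and 0.362 CPM in spNK and 112, 28.0, 31.3 and 54.1 CPM in tuNK, in the order of the replicates. It was higher in tuNK without overlap, by 7.22 ± 0.77 on the log2 scale (edgeR, adjusted p = 4.74e-05), and tuNK 1 was again the highest. Without spNK 2 the value was 7.81.

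Type V collagen nucleates and limits the width of type I fibrils, and its 3 chains were all detected. Col5a1 stood at 3.23, 3.23, 12.4 and 4.33 CPM in spNK and 70.5, 32.4, 29.6 and 45.9 CPM in tuNK, so it was present in both groups, with spNK 3 far above the other spNK libraries. It was 7.69-fold higher in tuNK (log2 fold change 2.94 ± 0.52; edgeR, adjusted p = 0.000945). Without spNK 3 the spNK mean fell from 5.80 to 3.596 CPM and the log2 fold change was 3.62. Col5a3 was at 0 in all spNK libraries and at 13.7, 5.38, 6.71 and 9.95 CPM in tuNK 1 to 4. Against a floor of 3 counts per spNK library, on average 0.0630 CPM, it was at least 142-fold higher (edgeR, adjusted p = 3.62e-06). Col5a2 was also at 0 in all spNK libraries and at 6.42, 0.186, 1.52 and 2.30 CPM in tuNK 1 to 4, and it was too low in tuNK 2 to be tested. Of the 3 chains only Col5a1 was above 0 in spNK.

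Col11a2, a chain of the type XI collagen of cartilage fibrils, went the other way. It stood at 1.60, 2.27, 0.938 and 1.04 CPM in spNK and 0.336, 0.0932, 0.102 and 0.0255 CPM in tuNK, without overlap, and was 10.5-fold lower in tuNK (log2 fold change -3.38 ± 0.74; edgeR, adjusted p = 0.00187). Without tuNK 1 the value was -4.27. Scaled to leukocyte genes it was no longer called, at -1.66 ± 0.77 (adjusted p = 0.0622). Its partner chain Col11a1 and the type II chain Col2a1, the main collagen of cartilage, were at 0 in all 8 libraries. Col24a1 was at 0 in spNK and at most 13 counts in tuNK, and Col27a1 reached no more than 6 counts in any library.

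Basement membrane collagen is assembled from the type IV chains, most widely from Col4a1 and Col4a2. Col4a1 (chr8:11198423-11312826, minus strand) stood at 0.767, 0.106, 0.775 and 0.498 CPM in spNK and 136, 62.4, 67.4 and 86.5 CPM in tuNK. Col4a2 (chr8:11312805-11449287, plus strand) stood at 0.512, 0.373, 0.408 and 0.679 CPM in spNK and 90.6, 49.9, 59.6 and 65.5 CPM in tuNK. Neither chain overlapped between the groups, and both were highest in tuNK 1 and lowest in tuNK 2. The log2 fold changes were 7.39 ± 0.50 (edgeR, adjusted p = 1.95e-06) and 7.08 ± 0.26 (edgeR, adjusted p = 9.25e-09). Col4a2 had the smallest SE of the chains above 0 in both groups that were higher in tuNK.

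Both genes are read in opposite directions from a common start region, and their annotated bodies overlap by 22 bases. The library kit keeps the strand, but no source used here gives the strand setting of the counting. The promoter window of Col4a1 (RefSeq, GRCm38.p6, chr8:11312777-11313076, minus strand) is shown because it overlaps that of Col4a2. Capitals mark the 78 bases that lie in both windows, chr8:11312777-11312854. The whole window holds 1 CCAAT box and 1 GC box.
Col4a1: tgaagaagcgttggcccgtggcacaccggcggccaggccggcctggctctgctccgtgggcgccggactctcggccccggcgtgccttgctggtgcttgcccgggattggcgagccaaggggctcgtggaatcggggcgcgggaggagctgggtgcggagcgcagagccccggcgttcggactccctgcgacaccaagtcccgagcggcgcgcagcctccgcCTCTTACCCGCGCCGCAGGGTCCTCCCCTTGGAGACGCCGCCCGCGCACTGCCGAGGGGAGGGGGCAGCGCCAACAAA

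Col4a5, a chain of the network of the kidney filter and other specialised basement membranes (chrX:141475385-141689234, plus strand), was at 0 in all spNK libraries. It stood at 27.0, 21.7, 16.7 and 20.0 CPM in tuNK 1 to 4, at least 339-fold higher (edgeR, adjusted p = 1.65e-07). Its divergent neighbour Col4a6 (chrX:141165403-141474076, minus strand), which starts 1308 bases away, was at 0 in all 8 libraries. The 2 chains are known to pair in the basement membranes of smooth muscle. The third divergent pair also showed little, with Col4a3 at 0 in all 8 libraries and Col4a4, 71 bases away, at 12 and 6 counts in spNK 1 and 2 and 0 elsewhere. The windows of Col4a5 (chrX:141475169-141475468, plus strand) and Col4a6 (chrX:141474027-141474326, minus strand; RefSeq, GRCm38.p6) are shown because these neighbours differ in whether they were detected. Capitals mark CCAAT and GGGCGG on either strand, which gave 1 and 1 in Col4a5 and 0 and 1 in Col4a6.
Col4a5: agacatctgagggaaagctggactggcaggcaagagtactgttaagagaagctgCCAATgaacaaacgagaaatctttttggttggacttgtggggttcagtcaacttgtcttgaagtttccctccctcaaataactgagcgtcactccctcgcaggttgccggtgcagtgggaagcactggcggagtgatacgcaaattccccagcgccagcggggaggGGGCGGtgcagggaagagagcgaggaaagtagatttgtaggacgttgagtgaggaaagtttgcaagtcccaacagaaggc
Col4a6: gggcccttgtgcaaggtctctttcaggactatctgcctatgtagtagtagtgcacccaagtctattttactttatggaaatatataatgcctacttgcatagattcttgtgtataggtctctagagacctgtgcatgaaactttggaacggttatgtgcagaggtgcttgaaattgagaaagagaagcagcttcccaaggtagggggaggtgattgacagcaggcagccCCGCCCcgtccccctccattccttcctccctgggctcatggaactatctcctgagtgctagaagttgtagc

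The beaded filament class, type VI collagen, surrounds many cells and links them to the fibrils, and it was not detected in spNK. Col6a1, the α1 chain (chr10:76708792-76726168), was at 0 in all spNK libraries and at 108, 63.0, 63.9 and 90.6 CPM in tuNK 1 to 4. It was at least 1292-fold higher (edgeR, adjusted p = 3.44e-07). Col6a2 had 6 and 5 counts in spNK 1 and 4 and stood at 11.4, 4.59, 3.25 and 11.9 CPM in tuNK 1 to 4, with tuNK 1 and 4 above tuNK 2 and 3. Its log2 fold change was 6.98 ± 0.89 (edgeR, adjusted p = 5.73e-05), and 7.71 without spNK 1. Col6a3 was at 0 in all spNK libraries and at 8.80, 1.70, 0.483 and 5.87 CPM in tuNK 1 to 4, which is a range of 18.2-fold within one group. It was at least 66.8-fold higher in tuNK (edgeR, adjusted p = 0.000949), with a tuNK mean of 4.21 CPM that fell to 2.68 CPM without tuNK 1. Col6a4, Col6a5 and Col6a6, the later-described α chains that can take the place of Col6a3, reached at most 9 counts in any library.

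The short chain network collagens of type VIII, found beneath endothelium and in vessel walls, moved in opposite directions by TMM, though not with leukocyte scaling. Col8a1 (chr16:57624258-57754737) was at 0 in all spNK libraries and at 110.5, 66.0, 61.8 and 63.1 CPM in tuNK 1 to 4, at least 1196-fold higher (edgeR, adjusted p = 5.12e-07). Its values in tuNK 2 to 4 lay close together and tuNK 1 stood apart. Col8a2 (chr4:126286793-126314330) was the most abundant collagen chain of spNK per length (5.82 ± 1.39 TPM). It stood at 17.7, 25.2, 20.7 and 19.1 CPM in spNK 1 to 4 and 6.13, 9.71, 8.10 and 7.30 CPM in tuNK 1 to 4. The groups did not overlap, and it was 2.65-fold lower in tuNK by TMM (log2 fold change -1.40 ± 0.18; edgeR, adjusted p = 4.2e-05). Scaled to leukocyte genes the sign turned, and the value of 0.24 ± 0.19 was not called (adjusted p = 0.257). The direction of Col8a2 thus depends on the scaling, and that of Col8a1 does not.

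The promoter windows of these partner chains are shown because they differed in direction by TMM (RefSeq, GRCm38.p6; Col8a1 chr16:57754688-57754987, minus strand, and Col8a2 chr4:126286544-126286843, plus strand). Capitals mark GGGCGG on either strand, of which each window holds 4, and in Col8a2 a pair of them overlaps. Neither window holds CCAAT.
Col8a1: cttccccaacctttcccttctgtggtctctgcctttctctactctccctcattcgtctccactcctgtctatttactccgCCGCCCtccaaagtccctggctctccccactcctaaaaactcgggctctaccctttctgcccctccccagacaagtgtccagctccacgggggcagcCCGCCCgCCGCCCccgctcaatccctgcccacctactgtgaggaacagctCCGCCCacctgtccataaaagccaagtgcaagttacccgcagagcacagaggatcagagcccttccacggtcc
Col8a2: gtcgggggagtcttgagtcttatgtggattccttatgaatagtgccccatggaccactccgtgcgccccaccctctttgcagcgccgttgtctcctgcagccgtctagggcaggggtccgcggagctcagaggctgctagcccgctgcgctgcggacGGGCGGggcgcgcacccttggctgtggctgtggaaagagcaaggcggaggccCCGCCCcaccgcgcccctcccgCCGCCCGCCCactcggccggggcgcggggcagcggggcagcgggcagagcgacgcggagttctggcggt

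Col7a1, the chain of the anchoring fibrils that tie the epidermis to the dermis, stood at 0.488, 0, 0 and 0 CPM in spNK and 0.647, 1.40, 2.03 and 0.867 CPM in tuNK. The groups did not overlap, although spNK 1 came close to tuNK 1. Its log2 fold change of 3.35 ± 1.33 was past the threshold (edgeR, adjusted p = 0.0432) and the call was lost in 7 of the 8 fits that left out a library, with values of 2.92 to 3.54 and adjusted p-values of 0.0623 to 0.106 there. In the fit without spNK 1, which held all 21 spNK counts, the value was 8.77 (adjusted p = 0.000435), so the size of the difference rests on that library.

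Among the FACIT chains, which coat fibrils and interrupt their helix with flexible segments, Col16a1 reached the highest level per length, 17.3 ± 7.37 TPM in tuNK. It stood at 0.302, 0, 0.224 and 0.906 CPM in spNK and 112, 60.4, 54.6 and 73.8 CPM in tuNK, without overlap, and tuNK 1 was the highest. The log2 fold change was 7.78 ± 0.67 (edgeR, adjusted p = 1.27e-05), and 8.80 without spNK 4. Col14a1, which binds the surface of mature fibrils, stood at 0.419, 0, 0 and 0 CPM in spNK and 4.27, 1.12, 0.737 and 1.10 CPM in tuNK. It was higher by 4.12 ± 1.36 on the log2 scale (edgeR, adjusted p = 0.0203), but without tuNK 1 the call was lost, at 3.22 (adjusted p = 0.0786). Without spNK 1, whose 18 counts were the only ones in spNK, the fitted value was 9.32 (adjusted p = 0.000654), so its size rests on that library. Col12a1, a related fibril-associated chain, was at 0 in spNK and at 4.32, 0.932, 0.254 and 0.842 CPM in tuNK 1 to 4, and was not tested.

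The other FACIT chains had few counts in both groups. Col20a1 stood at 0.721, 0.781, 0.775 and 0.453 CPM in spNK and 0.181, 0.815, 0.102 and 0.332 CPM in tuNK. These values overlapped, and the log2 fold change of -0.92 ± 0.69 was not called (edgeR, adjusted p = 0.252), nor was -1.74 without tuNK 2 (adjusted p = 0.0592). With leukocyte scaling its sign turned to a value of 0.63 ± 0.68, also not called (adjusted p = 0.397). Col19a1 had 48, 43, 6 and 29 counts in spNK and 4, 9, 0 and 0 counts in tuNK, and Col9a3, a cartilage chain, had 10, 24, 6 and 4 counts in spNK and 8, 9, 20 and 0 counts in tuNK. Both overlapped between groups and neither was tested. Col9a3 overlaps the opposite-strand gene Tcfl5, which was near 0 in both groups. Col9a1 was at 0 in all 8 libraries, Col9a2 reached 10 counts in 1 library, and Col22a1 had 4 counts in tuNK 1.

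Of the transmembrane collagens, which span the cell membrane and can be shed, Col23a1 was lower in tuNK. It stood at 0.535, 1.17, 0.449 and 1.63 CPM in spNK and 0.103, 0.116, 0 and 0.306 CPM in tuNK, without overlap, and fell by 2.82 ± 0.90 on the log2 scale (edgeR, adjusted p = 0.0161). Without tuNK 4 the value was -3.63. The call was lost without spNK 4 (-2.44, adjusted p = 0.0539) and with leukocyte scaling (-1.23 ± 0.87, adjusted p = 0.206). Col17a1, a hemidesmosome protein of basal keratinocytes, had 0, 4, 23 and 0 counts in spNK and 17, 1, 0 and 53 counts in tuNK. Its high libraries lay in both groups and it was not tested. Col13a1 and Col25a1 were at 0 in all 8 libraries.

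The multiplexins are basement membrane proteoglycans, and Col18a1 is the precursor of endostatin. Col18a1 (chr10:77052178-77166548) stood at 1.000, 1.26, 2.28 and 3.94 CPM in spNK and 52.3, 33.2, 44.3 and 39.8 CPM in tuNK. Its groups did not overlap, it had the smallest coefficient of variation among the higher chains in tuNK (18.9%), and it was higher by 4.32 ± 0.41 on the log2 scale (edgeR, adjusted p = 1.1e-05). It overlaps the opposite-strand gene Slc19a1, with a mean of 20.2 CPM among spNK and 33.8 CPM among tuNK libraries. Col15a1 had 0, 11, 10 and 0 counts in spNK and stood at 5.10, 2.26, 1.65 and 1.63 CPM in tuNK, higher by 4.65 ± 0.98 (edgeR, adjusted p = 0.00154).

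**Figure D2:**
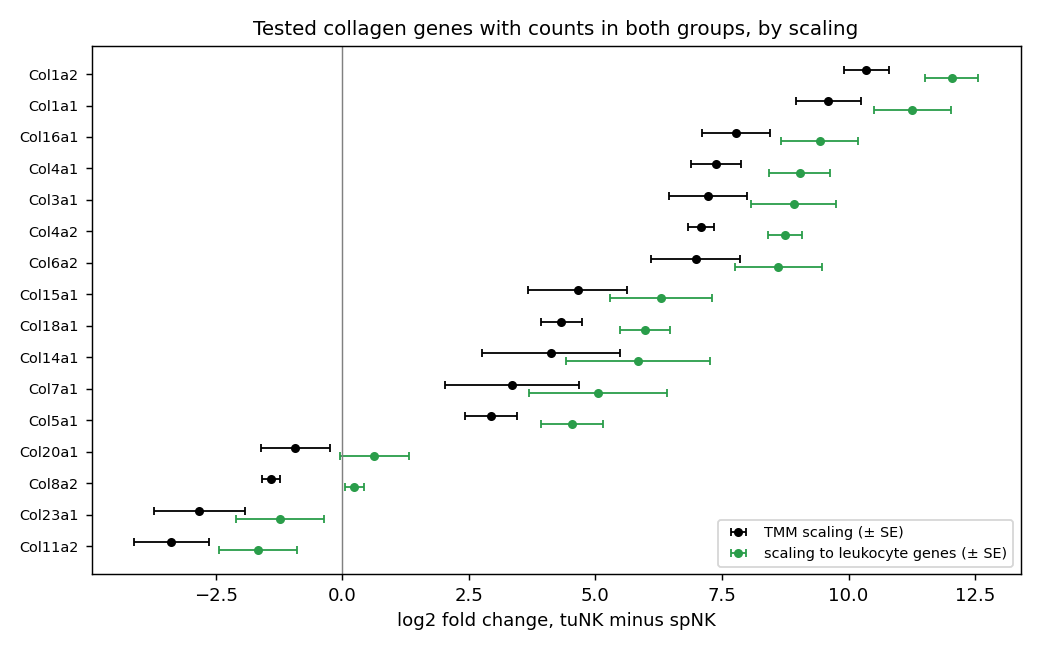
Log2 fold change (tuNK minus spNK, ± SE) of the 16 tested chains with counts in both groups, under TMM scaling and under scaling to leukocyte genes. The 12 chains called higher lie right of 0 under both, Col8a2 and Col20a1 cross 0, and Col11a2 and Col23a1 stay left of it without a call under leukocyte scaling.

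As a sum, the collagen genes took up far more of the tuNK libraries than of the spNK libraries. Summed collagen CPM was 31.7, 38.5, 41.8 and 35.6 in spNK 1 to 4 and 3849, 2404, 2350.4 and 2309.8 in tuNK 1 to 4. The spNK sums lay close together, and tuNK 1 stood above the other tuNK libraries. The group means were 36.9 ± 4.29 and 2728 ± 748 CPM, a 73.9-fold difference, and 24.5-fold with Col1a2 left out. Per length, the sums were 10.1 ± 1.32 TPM in spNK and 518 ± 197 TPM in tuNK (SD, n = 4 each). In shares of all deposited counts, collagen genes made up 0.00391% of spNK and 0.260% of tuNK libraries on average.

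The make-up of that sum differed as well. In tuNK, Col1a2 made up 68.9 ± 3.50% of summed collagen TPM, followed by Col1a1 (8.83 ± 0.669%), Col6a1 (3.89 ± 0.814%), Col16a1 (3.35 ± 0.790%) and Col8a1 (2.80 ± 0.116%). In spNK, Col8a2 made up 57.9 ± 11.6%, followed by Col5a1 (9.60 ± 9.18%), Col11a2 (5.59 ± 3.05%), Col1a2 (5.19 ± 2.29%) and Col18a1 (4.65 ± 2.68%). The large SD of Col5a1 in spNK came with its share of 23.3% in spNK 3, against 4.05 to 5.56% in the other 3. By class, fibrillar chains made up 77.8 to 83.2% of collagen TPM in tuNK and 13.04 to 36.2% in spNK. Short chain network chains made up 3.12 to 3.49% in tuNK and 48.9 to 73.7% in spNK. Transmembrane chains reached at most 0.131% in tuNK and 1.36 to 7.32% in spNK.

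**Figure D3:**
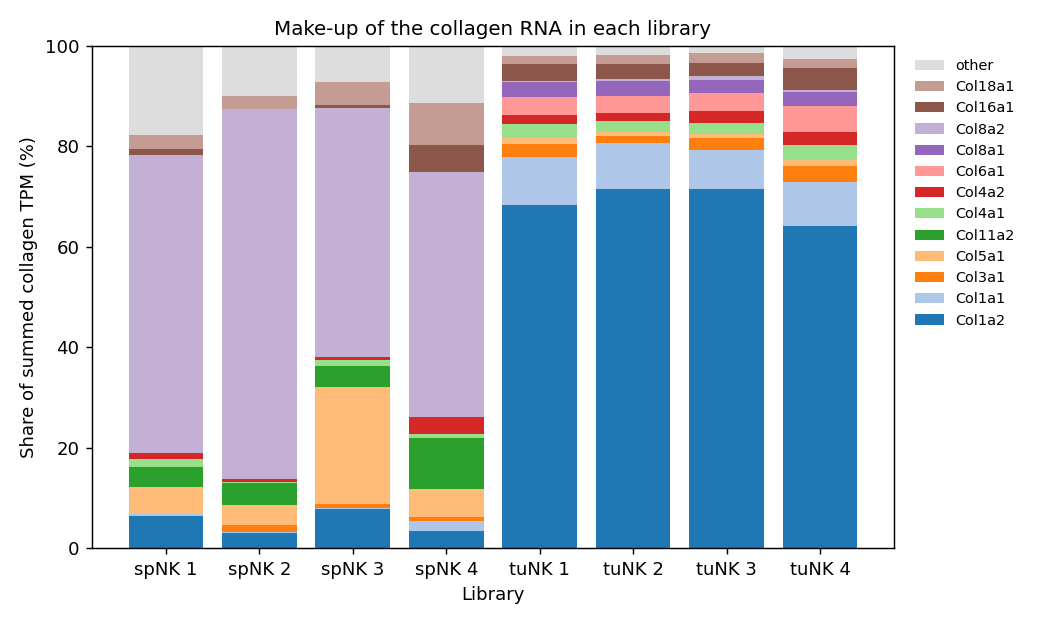
Share (%) of the summed collagen TPM taken by each main chain in each of the 8 libraries, with the remaining chains as other. Col8a2 takes the largest part of every spNK bar and Col1a2 of every tuNK bar.

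Chains that build one protein were set against each other per length in tuNK, where both had counts enough. Type I collagen is usually a trimer with more α1 than α2 chains, yet TPM of Col1a1 was 0.128 ± 0.0129 of that of Col1a2 (SD, n = 4), with single libraries from 0.111 to 0.138. In spNK 4, the only spNK library with 10 or more counts of both, the ratio was 0.564, from 47 and 24 counts. Col4a1 and Col4a2 were close to even, at a ratio of 1.18 ± 0.228 and from 0.907 to 1.46 in single libraries. Col6a1 exceeded Col6a2 by 12.2 ± 5.14 times and Col6a3 was 0.0262 ± 0.0158 of Col6a1, although type VI collagen is built from all 3. Without tuNK 3, at 0.00334, the Col6a3 ratio ran from 0.0283 to 0.0379. Col5a1 exceeded Col5a2 by 8.60, 15.2 and 16.3 times in tuNK 1, 3 and 4. TPM depends on the transcript models used for length, and only RNA was measured, so these are ratios of RNA estimates and not of chains in protein.

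**Figure D4:**
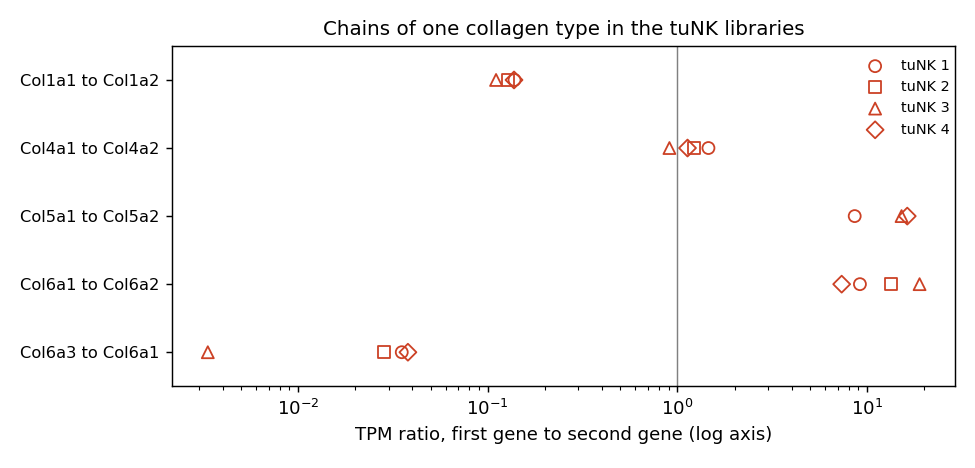
TPM ratio (log axis) between chains of one collagen type in each tuNK library with 10 or more counts of both. Col1a1 to Col1a2 is tight around 0.128, Col4a1 to Col4a2 lies around 1, and Col6a3 to Col6a1 spreads widest, with tuNK 3 lowest.

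Libraries of tuNK differed in level. Of the 17 chains called higher, 15 were highest in tuNK 1, and the exceptions were Col7a1, highest in tuNK 3, and Col6a2, highest in tuNK 4. The coefficient of variation in tuNK ran from 18.9% for Col18a1 to 91.5% for Col14a1. Col1a2 varied by 25.2%, Col6a1 by 26.9% and Col3a1 by 69.1%. The ratio of tuNK 1 to the mean of the other 3 was 1.56 for Col1a2, 1.82 for Col1a1, 2.97 for Col3a1 and 4.34 for Col14a1. Without both tuNK 1 and spNK 3, a setting added after the data were seen, 19 chains were called, 15 higher and 4 lower, and the log2 ratio of the summed CPM was 6.06 in place of 6.21.

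RefSeq gave promoter windows for 35 of the 44 genes (38 windows). Of the 17 chains called higher 15 had a window, and some had more than one, which made 17 windows, and the 3 chains called lower had 3. The CCAAT box was present in 8 of the 17 windows of chains called higher and in 0 of 3 of chains called lower, against 37.4% of all 32851 windows of that length. The GC box was present in 12 of 17, which belong to 11 genes, and in 3 of 3, against 35.7% of all windows. The only GC box of the Col4a1 window lies in the bases shared with the Col4a2 window, so that site is counted in both. The TATA box, searched as TATAAA, was present in 1 of 17 (Col3a1) and in 1 of 3 (Col11a2), against 13.6%. Among the 18 windows of collagen genes called neither higher nor lower, 5 held the CCAAT box, 8 the GC box and 3 the TATA box. Motifs were searched on both strands, and a match describes letters in the window only.

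Genes that make, trim, link and sense collagen were taken from 6 lists chosen by role with 62 genes in all. Of 49 tested, 38 were higher in tuNK, 10 were lower and 1 was not called, and with leukocyte scaling 44 were higher and 4 lower. Over all genes tested the shares were 35.6% and 34.0%, and 78.1% and 6.7% with leukocyte scaling.

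Hydroxylation and glycosylation enzymes were higher for 12 of 13 tested, with a median log2 fold change of 1.68 beside 0.02 over all genes tested. P4hb, the β subunit of prolyl 4-hydroxylase and also a general disulphide isomerase, stood at 480.1, 478, 493 and 481 CPM in spNK and 1167, 1055, 1173 and 1075 CPM in tuNK. It was 2.31-fold higher (edgeR, adjusted p = 2.58e-07). Plod3, which hydroxylates lysines and adds sugars to them, stood at 16.7, 15.8, 26.6 and 28.2 CPM in spNK and 270.0, 226, 256 and 232 CPM in tuNK, 11.3-fold higher (edgeR, adjusted p = 2.51e-07). Ppib, a prolyl isomerase, and Colgalt1, which adds galactose, were already high in spNK and were 1.35-fold and 1.52-fold higher. P3h2, a prolyl 3-hydroxylase, was the exception, at 0.349, 0.319, 0.306 and 0.679 CPM in spNK and at 0 in all tuNK libraries, at least 5.51-fold lower (edgeR, adjusted p = 0.00113). P4ha3 was at 0 in spNK and reached 0.905 CPM in tuNK 1, and was not tested.

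Folding and secretion genes were split, with 5 of 10 tested higher, 4 lower and 1 not called (Creb3l1), and a median of 0.65. Serpinh1, the collagen-specific chaperone Hsp47, stood at 0.512, 0.337, 0.857 and 0.838 CPM in spNK and 892, 634, 862 and 667 CPM in tuNK. The groups lay far apart, with a log2 fold change of 10.24 ± 0.29 (edgeR, adjusted p = 4.05e-09). Fkbp10, a prolyl isomerase that acts on procollagen, went from 8.06 ± 1.99 to 116 ± 15.7 CPM, 14.4-fold higher (edgeR, adjusted p = 4.12e-08). Pdia3, a general disulphide isomerase, was 1.49-fold higher. The genes lower by TMM were Ctage5, Mia3, Sec23a and Klhl12, which serve the export of large cargo from the endoplasmic reticulum, and with leukocyte scaling all 10 tested genes of the list were higher. The TMM call of Sec23a was lost without spNK 4, tuNK 2 or tuNK 4 (adjusted p = 0.0612 to 0.0684, edgeR). Ctage5 stood at 49.3, 51.2, 50.4 and 53.2 CPM in spNK and 43.4, 35.3, 38.6 and 34.8 CPM in tuNK.

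Among propeptide processing genes 3 of 4 tested were higher, with a median of 6.32, or 4.08 with Adamts2 at its bound. Pcolce, the enhancer of the C-proteinase that trims procollagen, stood at 0.0698, 0.302, 0.0816 and 0.159 CPM in spNK and 846, 769, 783 and 707 CPM in tuNK. Its log2 fold change of 12.22 ± 0.27 exceeded that of each of the tested chains above 0 in both groups (edgeR, adjusted p = 5.59e-10), and it was 12.84 without spNK 2. Bmp1, that C-proteinase, went from 1.62 ± 1.42 to 21.3 ± 6.22 CPM (log2 fold change 3.71 ± 0.58; edgeR, adjusted p = 0.000376), with a log2 fold change of 4.48 without spNK 3. The N-proteinases diverged. Adamts2 was at 0 in spNK and at 1.91, 1.33, 1.32 and 0.970 CPM in tuNK, at least 21.9-fold higher (edgeR, adjusted p = 8.83e-05). Adamts14 stood at 195, 205, 137 and 184 CPM in spNK and 45.9, 59.6, 29.7 and 49.9 CPM in tuNK, 3.89-fold lower by TMM (edgeR, adjusted p = 1.56e-05) and not called with leukocyte scaling. Adamts3 stood at 0.163, 0.479, 1.69 and 0.385 CPM in spNK and at 0 in tuNK, and was not tested. Tll1, Pcolce2 and Mep1a were at 0 in spNK with at most 0.595 CPM in tuNK, and Tll2 and Mep1b were at 0 in all 8 libraries.

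All 5 crosslinking enzymes were higher in tuNK, with a median of 5.12. Loxl3 stood at 0.767, 1.47, 2.20 and 2.38 CPM in spNK and 80.4, 54.3, 50.9 and 51.6 CPM in tuNK (log2 fold change 5.12 ± 0.33; edgeR, adjusted p = 5.94e-07). Loxl4 was at 0 in spNK and at 83.7, 49.6, 49.97 and 52.5 CPM in tuNK, at least 935-fold higher (edgeR, adjusted p = 2.42e-07). Lox, the founding lysyl oxidase, stayed low, with 1 spNK library above 0 and 9.24, 3.05, 1.85 and 2.88 CPM in tuNK, and Loxl1 stood at 0.402 ± 0.160 and 3.09 ± 2.36 CPM. In both, tuNK 1 was well above the other tuNK libraries, and without it the log2 fold changes were 7.09 in place of 7.83 for Lox and 2.23 in place of 2.94 for Loxl1. Without spNK 1, the only spNK library with Lox, its fitted value was 10.55.

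Fibril partners were higher for all 8 tested, with a median of 5.98, or 5.47 with Lum at its bound. Fn1, the adhesion protein fibronectin, stood at 0.744, 0.124, 33.6 and 1.45 CPM in spNK and 730.1, 455, 401 and 895 CPM in tuNK, and spNK 3 stood apart from its group as it did for Col5a1. The log2 fold change was 6.10 ± 1.53 (edgeR, adjusted p = 0.00727), and 9.70 without spNK 3. Postn, named after its values were seen, was the list's only call lost in such a fit, without tuNK 1 (2.22 in place of 3.08, adjusted p = 0.0687, edgeR). Sparc, a collagen-binding glycoprotein, stood at 1.74, 0.532, 0.959 and 2.13 CPM in spNK and 522, 356, 444 and 321 CPM in tuNK (log2 fold change 8.29 ± 0.43; edgeR, adjusted p = 4.1e-07). Bgn, a small proteoglycan, and Tnxb, a tenascin, reached means of 30.1 ± 8.18 and 35.7 ± 14.1 CPM in tuNK. Lum, a proteoglycan of fibroblasts, was at 0 in spNK and at 2.61, 1.14, 1.12 and 1.86 CPM in tuNK.

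Receptors and uptake genes were split, with 5 of 9 tested higher and 4 lower, and a median of 1.08. Ddr2, a receptor kinase for fibrillar collagen, was at 0 in all spNK libraries and at 159.8, 119, 126 and 119.6 CPM in tuNK 1 to 4, at least 2083-fold higher (edgeR, adjusted p = 1.16e-08). Itga2, Lair1 and Gp6 were lower. Itga1, the integrin α1 of tissue-resident lymphocytes, was higher (2.50 ± 0.976 and 5.28 ± 2.07 CPM; log2 fold change 1.08 ± 0.39; edgeR, adjusted p = 0.0273), and its call was lost in 5 of the 8 fits that left out a library, with adjusted p-values of 0.0522 to 0.0986. Itga2, the collagen-binding integrin α2 (CD49b) that is also an NK marker, stood at 95.2, 92.1, 71.6 and 79.7 CPM in spNK and 7.61, 7.48, 4.801 and 6.15 CPM in tuNK, 13.01-fold lower (edgeR, adjusted p = 2.59e-08). Lair1, an inhibitory collagen receptor of leukocytes, stood at 34.8, 41.5, 33.8 and 34.0 CPM in spNK and 5.20, 9.97, 4.73 and 10.7 CPM in tuNK, 4.71-fold lower (edgeR, adjusted p = 3.12e-05). Gp6, the platelet collagen receptor, stood at 2.19, 4.10, 3.81 and 6.91 CPM in spNK and at 0 in tuNK, at least 56.6-fold lower (edgeR, adjusted p = 1.85e-05). Itgb1, the partner of the collagen-binding integrins, overlapped between groups (663 ± 62.4 and 544 ± 56.6 CPM) and was lower by TMM (edgeR, adjusted p = 0.0277) and higher with leukocyte scaling. The TMM call of Itgb1 was lost without spNK 1, spNK 2, tuNK 3 or tuNK 4 (adjusted p = 0.0609 to 0.0774, edgeR). Oscar, Cspg4 and Itga11 were at 0 in spNK and at most 0.647 CPM in any tuNK library.

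**Figure D5:**
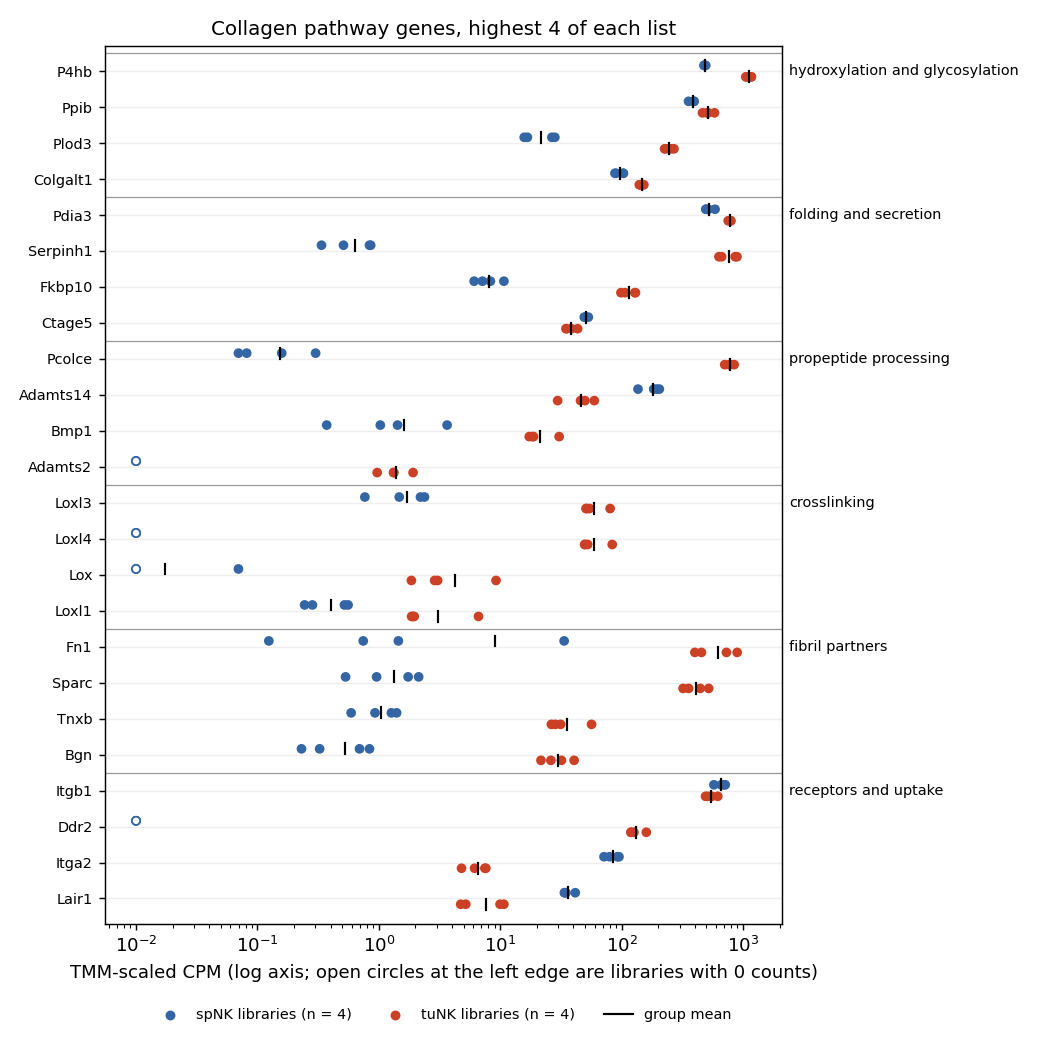
TMM-scaled CPM on a log axis for the 4 genes with the highest mean in each of the 6 role lists, with 1 point per library, open circles for 0 counts and a bar at the group mean. The spNK points of Ddr2 and Loxl4 are all open circles, those of Pcolce and Serpinh1 lie far below the tuNK points, and P4hb, Ppib and Itgb1 are high in both groups.

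Markers of cell types that could share the sort were read beside these results, and their part in them was not tested. Within each list the most abundant genes are given by CPM, which is not per length. Of 12 fibroblast markers 11 were tested, and 8 of these were higher in tuNK and 3 were not called (9 higher with leukocyte scaling). Shares over all genes tested, for this list and those below, were 35.6% higher and 34.0% lower by TMM. With leukocyte scaling they were 78.1% and 6.7%. Dcn, Lum and Postn of this list also belong to the fibril partners above, so these lists are not separate. Likewise Itga2, Gp6 and Cspg4 of the receptors and uptake genes also belong to the NK, platelet and myofibroblast marker lists. The fibroblast sums were 114 to 151 CPM in spNK and 437 to 539 CPM in tuNK. Gsn (spNK 28.1 ± 5.63, tuNK 259.9 ± 37.7 CPM) and Thy1 (spNK 101 ± 19.8, tuNK 188 ± 44.7 CPM), which other cells also express, made up most of that sum. Pdgfra, Lum and Fap were at 0 in spNK, and Pdgfra stood at 17.2, 7.08, 8.54 and 10.5 CPM in tuNK 1 to 4. Markers of myofibroblasts and pericytes summed to 48.3 to 101 CPM in spNK and 7.501 to 12.1 CPM in tuNK, which in spNK was mostly Kcnj8 (78.3 ± 22.6 CPM), and 3 of 4 tested were higher in tuNK. The next most abundant of these were Notch3 in spNK (0.355 ± 0.240 CPM) and, after Kcnj8 (4.28 ± 0.928 CPM), Des in tuNK (1.33 ± 0.472 CPM). Myh11 was at 0 in all 8 libraries, Cnn1 was at 0 in tuNK, and Rgs5 and Cspg4 were at 0 in spNK.

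Of 10 epithelial and CT26 markers 7 were tested, of which 4 were higher and 3 were not called (6 higher with leukocyte scaling). Their sums were 4.12 to 12.9 CPM in spNK and 50.5 to 71.7 CPM in tuNK. Krt20, Krt19 and Cldn7 were at 0 in spNK, which is a statement about counts and not a test of a difference. In tuNK the most abundant was Krt18, at 22.7, 26.5, 33.5 and 42.1 CPM in tuNK 1 to 4, followed by Cdh17 (11.8 ± 1.73 CPM). In spNK Muc1 (2.64 ± 0.399 CPM) and Cdh1 (1.71 ± 2.73 CPM) were the most abundant. The tuNK library with most collagen RNA, tuNK 1, had the highest fibroblast and myofibroblast sums of its group and the lowest NK, epithelial, macrophage, platelet and erythroid sums. The fibroblast sum is mostly Gsn and Thy1, and this match rests on 1 library and was not tested. Endothelial sums were 148 to 183 CPM in spNK and 45.0 to 71.6 CPM in tuNK, with Pecam1 (82.4 ± 10.4 and 51.1 ± 12.4 CPM) most abundant in both, Vwf at 65.8 ± 20.9 CPM in spNK and 0 in tuNK, Plvap at 1.91 ± 0.914 CPM in tuNK, 4 of 7 tested markers lower and 3 not called by TMM, and 2 higher and 2 lower with leukocyte scaling. Macrophage sums were 578 to 821 CPM in spNK and 329 to 473 CPM in tuNK, with 2 of 9 tested markers higher and 3 lower by TMM, and 4 higher and 2 lower with leukocyte scaling. Ccr2 led in both groups (563 ± 59.5 and 313 ± 67.6 CPM), followed by Lyz2 in spNK (96.3 ± 98.2 CPM) and Cd14 in tuNK (60.3 ± 6.79 CPM). Pecam1 and Vwf made up most of the endothelial sum in spNK, and Ccr2 most of the macrophage sum in both groups. These sums thus follow few genes and do not measure the amount of a cell type. Platelet sums were 321 to 587 CPM in spNK and 5.36 to 7.499 CPM in tuNK, B cell sums 259 to 1289.9 CPM and 24.5 to 38.1 CPM, and erythroid sums 158 to 729 CPM and 0.362 to 1.94 CPM. Of these 3 lists 8 of 8, 7 of 8 and 7 of 7 tested markers were lower in tuNK, with either scaling. Over all genes tested 34.0% were lower by TMM and 6.7% with leukocyte scaling. The most abundant were Itga2b (166 ± 46.5 and 4.22 ± 0.758 CPM), Ighm (769 ± 424 and 29.6 ± 5.43 CPM) and Hba-a2 (141 ± 71.8 and 0.670 ± 0.657 CPM), followed by Pf4, Cd79b and Hbb-bs in spNK and Ppbp, Cd79b and Hba-a1 in tuNK. The spNK library with the most Col5a1, spNK 3, also had the highest epithelial, macrophage, B cell and erythroid sums of its group. This match also rests on 1 library and was not tested.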

How the data were processed

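RNA sequencing measured gene expression in 4 spNK and 4 tuNK libraries, grouped by title. Per the submitters' processing notes, reads were checked with FastQC 0.11.9, and STAR and Salmon were used with GRCm38 (mm10). One deposited table holds estimated counts per gene (expected counts, not normalised), and the other deposited table holds TPM. The sources used here give no aligner version, annotation release or strand setting, and 0 columns were left without a sample. All 44 members were found in GENCODE M21, which gave the positions.

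Estimated counts were rounded to whole numbers. Genes passing filterByExpr by group were tested with edgeR 4.0.16 (R 4.3.3): TMM scaling, robust quasi-likelihood fit, Benjamini-Hochberg adjustment over 14006 genes, threshold 0.05, common dispersion 0.071. The test itself reports no SE. The SE given with a log2 fold change is its absolute value divided by the square root of the F statistic. The code was tested on simulated data, in which 200 of 14006 genes were changed. It recovered 46.5% of them at a 2-fold change and 99% at a 4-fold change. Floors of 3 counts in each library averaged 0.0630 CPM for spNK and 0.0751 CPM for tuNK. They cover counting error only, because reads copied by PCR are not separate molecules.

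The members, classes and gene lists were chosen with earlier results of these data known. Every detected chain is named. From each role list the 4 genes with the highest mean CPM and those at 0 in a whole group are named, and from marker lists the 2 most abundant in each group. Alternatives were other scalings (including 31 of 32 listed leukocyte genes, since 1 symbol had more than one entry), other filters, DESeq2 1.42.0, limma 3.58.1 (voom, and trend on log2 TPM with 1 or 0.1 added), the replicate number as a block, and leaving libraries out. Same-numbered samples did not deviate together (correlations of -0.01, 0.04, 0.03 and 0.02), and the labels state no shared origin. Such correlations cannot decide whether same-numbered samples came from the same mouse, so pairing is not known.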

Additional observations from a re-analysis of the deposited data

Results flagged for a closer look

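The 27 detected chains gave 46 sets of 4 CPM values, 1 per chain and group, beside 8 sets at 0 throughout. In 9 of the 46 the highest library stood apart from the other 3 by Dixon's criterion. The criterion marks about 1 group in 20 when values are independent and normally distributed. Sets with few counts, and chains read in the same library, do not meet this, so the 9 sets cannot be weighed against that rate. Of the 9 sets 3 rest on 23 counts or fewer in 1 library.

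In tuNK 1, Col1a1 stood at 418 CPM, while the other tuNK libraries ran from 216 to 243 CPM. Col8a1 stood at 110 CPM in tuNK 1, against 61.8 to 66.0 CPM in the others. Col12a1 stood at 4.32 CPM in tuNK 1, against 0.254 to 0.932 CPM, and Col14a1 at 4.27 CPM, against 0.737 to 1.12 CPM. In spNK 3, Col5a1 stood at 12.4 CPM, against 3.23 to 4.33 CPM in the other spNK libraries, and Col17a1 at 0.469 CPM, against 0 to 0.0710 CPM. In spNK 4, Col1a1 stood at 1.06 CPM, against 0.106 to 0.186 CPM. In spNK 1, Col7a1 stood at 0.488 CPM and Col14a1 at 0.419 CPM, with 0 in the other spNK libraries. The 4 chains that stood apart in tuNK belong to the fibrillar, short chain network and FACIT classes, and all 4 stood apart in the same library. The 5 spNK sets were spread over spNK 1, 3 and 4. What sets these libraries apart was not tested.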

How the results depend on the processing

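Over all settings tried, 16 to 22 collagen genes were called, against 20 with TMM and edgeR, and 43 to 52 genes of the role lists, against 48. The number tested also changed with the setting. With at least 1 CPM in 4 libraries, 16 of 16 collagen genes tested were called, and without a filter 22 of 36, beside 20 of 21. For the role lists these were 43 of 43 and 52 of 60, beside 48 of 49. Scaled to leukocyte genes, the number called lower was 0 in place of 3 for collagen genes and 4 in place of 10 for the role lists, and Col8a2 and Col20a1 turned to 0.24 and 0.63. Leaving out 1 library gave 19 to 22 collagen calls among 24 or 25 tested (16 to 19 higher, 2 to 4 lower). The log2 ratio of summed collagen CPM then ran from 6.0 to 6.28 around 6.21. From summed TPM that ratio was 5.68, and without Col1a2 it was 4.61. Without spNK 3 and tuNK 1 together, a setting chosen after seeing the data, 19 collagen genes and 47 role genes were called. With the replicate number as a block, 20 collagen genes (17 higher, 3 lower) and 47 role genes (37 higher, 10 lower) were called. The labels do not state that these numbers pair the samples.

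For the 21 tested chains, 159 values with a library left out kept their direction and call. The 9 lost calls were 7 of Col7a1, 1 of Col14a1 (without tuNK 1) and 1 of Col23a1 (without spNK 4). Of the other settings, 238 values kept both, 7 lost the call and 2 turned. Col7a1 also lost its call with scaling by library size alone (adjusted p = 0.0527, edgeR) and without a filter (adjusted p = 0.0728, edgeR), and Col23a1 with log2(TPM + 1) (adjusted p = 0.0747, limma). The causes were not tested. Depth limits the chains under about 10 counts: 33 chains had at least 1 count in 2 libraries and 22 had 10 or more in 4.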

Other observations

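Further enzymes that modify collagen prolines were higher in tuNK, while P3h2, described above, was lower. P4ha1, the catalytic subunit of prolyl 4-hydroxylase, averaged 42.04 ± 13.5 CPM across spNK and 121 ± 13.4 CPM across tuNK libraries (SD, n = 4 each), and P4ha2, a second form of it, at 0.315 ± 0.315 and 16.5 ± 1.52 CPM. P3h3, a prolyl 3-hydroxylase family member, was at 0, 0, 0.428 and 0.476 CPM in spNK 1 to 4 and at 71.7, 46.2, 48.8 and 43.5 CPM in tuNK 1 to 4, without overlap (log2 fold change 7.88 ± 0.70; edgeR, adjusted p = 1.45e-05). Its complex partner P3h4 was 3.64-fold higher, and Crtap, part of the other prolyl 3-hydroxylase complex, 3.21-fold higher. Without spNK 3 the log2 fold change of P4ha2 was 6.54 in place of 5.71, and without spNK 4 that of P3h3 was 8.49. These genes were chosen after their values were seen.

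Of the receptors and uptake genes, Ddr1 and Mrc2 were higher in tuNK, and Gp6, described above, was lower. Ddr1, a collagen receptor kinase of epithelia, stood at 0.256, 0.568, 1.24 and 1.34 CPM in spNK 1 to 4 and 19.4, 22.4, 18.5 and 19.3 CPM in tuNK 1 to 4 (log2 fold change 4.54 ± 0.42; edgeR, adjusted p = 5.41e-06). Mrc2, an endocytic receptor for cleaved collagen, stood at 0.216 ± 0.146 and 4.39 ± 1.85 CPM. These were also chosen after their values were seen. Thbs2, a matricellular protein of the fibril partner list, differed widely within tuNK, at 7.09, 2.10, 2.21 and 18.9 CPM in tuNK 1 to 4, and there tuNK 4 and not tuNK 1 was the highest. Its log2 fold change was 7.04, 6.09 without tuNK 4 and 11.32 without spNK 2.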
